A study of Mus musculus with 6 samples.

Results

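Clstn1, Clstn2, Clstn3, S100b and S100a1 were examined in whole hearts of mice that overexpress prokineticin receptor-1 (PKR1) in cardiomyocytes. Every non-control probe carrying one of these gene names was taken, which gave 8 of the 41174 probes on the array. They are 5 of the array's 27745 gene names. The genes were chosen by their known normalized intensities in these same TG-PKR1 and WT hearts, so their differences between TG-PKR1 and WT hearts are given as a description, with standard errors and without p-values. All mice were males of 12 weeks, 3 of them WT and 3 TG-PKR1, and each heart was hybridised to 1 single-colour Agilent array. In TG-PKR1 mice the alpha myosin heavy chain (αMHC) promoter drives PKR1, so the transgene acts in cardiomyocytes, while the RNA holds every cell type of the heart and any fat left on it. Values are log2 median spot intensities normalized between arrays, and comparisons are made within a probe, never between probes. The labels give no strain for these mice. The replicate numbers only name the samples and do not match WT to TG-PKR1 animals.

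Calsyntenins are membrane proteins with cadherin repeats that are best known from neurons, where they bind neurexins at synapses and link cargo vesicles to kinesin-1. The Clstn3 locus also makes Clstn3b, an adipocyte product of thermogenic fat that shares the last exons of Clstn3 and promotes secretion of S100b. S100b is a small calcium-binding protein of glial cells and adipocytes that stimulates the growth of sympathetic nerve fibres into thermogenic fat. S100a1 is the related protein of cardiomyocytes, where it binds the ryanodine receptor and the calcium pump of the sarcoplasmic reticulum.

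Of the 5 genes, Clstn3 and S100b were lower in TG-PKR1 hearts, and Clstn1, Clstn2 and S100a1 overlapped between the groups. The mean of Clstn3 in TG-PKR1 hearts was 17.0% of that in WT hearts and the mean of S100b was 53.8%. The size for Clstn3 depends on the hearts compared, with a log2 difference of -2.55 over all hearts and -1.16 between the 2 hearts that shared a slide. The differences of the other measurable probes lay between 0.02 and 0.19 on the log2 scale, each smaller than its standard error.

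The probe positions say which transcripts these values can come from. The Clstn3 probe lies on the minus strand of mm8 at chr6:124396463-124396522, and its 60 bases are contiguous in the genome, so it spans no intron. The nearest probe on the side of lower coordinates belongs to Pex5, 30.6 kb away, and the nearest named neighbour on the side of higher coordinates is C1rl, 76.2 kb away. The gene reads from the C1rl side to the Pex5 side, and the probe lies closer to that of Pex5. A position toward the 3′ end is inferred from these distances, which do not give the bounds of the gene. RefSeq lists Clstn3b as another name of this gene. A probe toward the 3′ end can be shared by Clstn3 and Clstn3b transcripts, so the signal is called Clstn3 here as the array names it, and its split between the transcripts was not resolved. Without an mm8 gene model, the exon and its coding or untranslated part were not assigned.

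The S100b probe lies on the plus strand at chr10:75703680-75703739 and the S100a1 probe on the minus strand at chr3:90597138-90597197. Clstn1 has probes at chr4:148491406-148491465 and chr4:148492568-148492627 on the plus strand. The 3 probes of Clstn2 lie on the minus strand at chr9:97253767-97253826, chr9:97254559-97254618 and chr9:97266915-97266974. All of these span 60 contiguous bases of mm8.

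The sequences before the start sites of Clstn3 and S100b are shown because these genes were lower in the same hearts. RefSeq promoters of GRCm38.p6 matched all 5 genes and gave 2 start sites for Clstn3, of which the table does not say which transcript they serve. Each sequence runs from 250 bases before to 10 bases after the start, 5′ to 3′ on the strand of the gene. Capitals mark a match to the CCAAT box (CCAAT) or the cAMP response element (TGACGTCA), on either strand, and no capitals mean that neither set of letters occurs. The first Clstn3 start is at chr6:124464775-124465034 on the minus strand, the second at chr6:124462735-124462994 on the minus strand, and S100b at chr10:76253586-76253845 on the plus strand.
Clstn3, first start: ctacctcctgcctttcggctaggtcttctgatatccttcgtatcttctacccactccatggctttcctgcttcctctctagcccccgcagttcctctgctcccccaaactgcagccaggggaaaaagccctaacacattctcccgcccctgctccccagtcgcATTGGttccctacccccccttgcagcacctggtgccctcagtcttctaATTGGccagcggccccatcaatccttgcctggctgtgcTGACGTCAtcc
Clstn3, second start: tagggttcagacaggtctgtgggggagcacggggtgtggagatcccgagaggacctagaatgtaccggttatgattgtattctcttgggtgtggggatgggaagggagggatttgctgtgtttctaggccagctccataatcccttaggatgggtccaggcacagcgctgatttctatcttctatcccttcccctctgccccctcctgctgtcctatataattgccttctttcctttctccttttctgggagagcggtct
S100b: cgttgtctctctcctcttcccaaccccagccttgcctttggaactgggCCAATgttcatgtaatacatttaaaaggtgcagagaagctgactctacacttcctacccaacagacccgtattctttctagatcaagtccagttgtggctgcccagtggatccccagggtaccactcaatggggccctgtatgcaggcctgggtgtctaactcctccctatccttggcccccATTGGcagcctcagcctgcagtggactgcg

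The first Clstn3 start has a cAMP response element that begins 1 base before the start site and runs over it, and 2 CCAAT boxes on the opposite strand that begin 87 and 39 bases before it. The S100b start has CCAAT boxes that begin 202 and 20 bases before it, on the gene's strand and on the other strand. Of the 32851 promoters in the table, 1.79% hold the cAMP response element and 37.4% the CCAAT box within 300 bases, and both also occur beside genes whose hearts overlapped. Clstn2 holds the cAMP response element, which begins 85 bases before its start, and Clstn1 a CCAAT box, which begins 161 bases before its start. The TATA box (TATAAA), found in 13.6% of promoters, and a direct repeat of AGGTCA with 1 base between the copies (AGGTCANAGGTCA), the layout bound by PPARγ with its partner RXR and found in 0.0396%, were not found in the windows of the 5 genes. The promoters also differ in CpG dinucleotides. The window of S100b holds 3, those of Clstn3 hold 8 and 6, and that of S100a1 holds 11, against a median of 7 over all promoters, while Clstn1 has 48 and Clstn2 has 43. These matches describe letters and say nothing of binding in these hearts.

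Arrays differed in scanning and brightness, and this touches every value below. The upper limit of the intensity scale split the arrays into extended-range scans (WT replicate 1, TG-PKR1 replicates 2 and 3) and single scans (WT replicates 2 and 3, TG-PKR1 replicate 1), and 5 slides were used, of which 1 carried both WT replicate 2 and TG-PKR1 replicate 1. Between 19650 and 24923 probes were well above background, and the upper quartile of signals was 2.08 to 14.1 times the local background, lowest in WT replicate 2. The Prokr1 probe, for the gene of PKR1, was not well above background on any of the 6 arrays, so it does not check the genotype labels. All 12 cardiomyocyte markers read for the tissue label were well above background in every heart.

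Clstn3 had the widest gap between the groups. Its normalized log2 intensity was 10.69, 9.35 and 10.72 in WT replicates 1 to 3. It was 8.19, 7.75 and 7.15 in TG-PKR1 replicates 1 to 3. Every TG-PKR1 heart was below every WT heart, and the lowest WT heart, replicate 2, stood 1.16 above the highest TG-PKR1 heart. The WT mean was 10.25 ± 0.78 (SD, n = 3) and the TG-PKR1 mean 7.70 ± 0.52 (SD, n = 3), a difference of -2.55 ± 0.40 (SE), or 5.87-fold. Ordered by this difference, Clstn3 was number 6 from the lowest of the 20000 probes with the highest median signal. The spot was well above background on all 6 arrays, at 2.53 to 53.9 times the local background, with no saturation and no outlier mark. The dimmest spots were TG-PKR1 replicate 1 and WT replicate 2, both single scans.

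S100b was lower by a smaller step and with a tighter WT group. Its normalized log2 intensity was 9.29, 9.09 and 9.07 in WT replicates 1 to 3. In TG-PKR1 replicates 1 to 3 it was 8.01, 8.61 and 8.15. The groups did not overlap, with a gap of 0.46 between WT replicate 3 and TG-PKR1 replicate 2. The WT mean was 9.15 ± 0.12 (SD, n = 3), the TG-PKR1 mean was 8.26 ± 0.31 (SD, n = 3), and the difference was -0.89 ± 0.19 (SE), or 1.86-fold. By the size of its difference the probe was number 124 from the lowest. Its spot was 2.31 to 20.5 times the local background and well above background on all 6 arrays.

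The hearts did not order alike for the 2 genes. TG-PKR1 replicate 3 had the lowest Clstn3 value and TG-PKR1 replicate 1 the lowest S100b value. Among WT hearts, replicate 2 was the low one for Clstn3 and lay between the other two for S100b.

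The remaining calsyntenins showed no such gap. Clstn1, a calsyntenin with wide tissue expression, was read by 2 probes. The brighter, at chr4:148492568-148492627, gave 12.47, 12.84 and 12.80 in WT hearts and 12.67, 12.63 and 12.91 in TG-PKR1 hearts, a difference of 0.03 ± 0.17 (SE). The dimmer, at chr4:148491406-148491465, gave 7.61, 7.24 and 6.97 in WT hearts and 7.69, 7.09 and 7.60 in TG-PKR1 hearts, a difference of 0.19 ± 0.22 (SE). On both probes the groups overlapped. Without 1 heart the brighter probe ran from -0.11 to 0.11 and the dimmer from 0.03 to 0.36.

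Clstn2, the calsyntenin studied mainly in inhibitory neurons, was measurable by 1 of its 3 probes. That probe gave 7.62, 7.98 and 7.43 in WT hearts and 7.38, 8.36 and 7.34 in TG-PKR1 hearts, a difference of 0.02 ± 0.29 (SE). The highest and the lowest value were both from TG-PKR1 hearts, and without 1 heart the difference ran from -0.27 (without TG-PKR1 replicate 2) to 0.19. The other 2 probes were not well above background on any array and were not among the 20000, so they give no level for this gene.

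S100a1 was variable in both groups. It gave 13.49, 11.90 and 12.91 in WT hearts and 13.40, 12.35 and 12.94 in TG-PKR1 hearts. The groups overlapped almost fully, and the difference was 0.13 ± 0.40 (SE). Its sign turned with single hearts, at -0.29 without WT replicate 2, -0.09 without TG-PKR1 replicate 1 and 0.47 without WT replicate 1. WT hearts spanned 1.59 and TG-PKR1 hearts 1.05 on the log2 scale, and the standard error was over that of every other member probe.

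**Figure D1:**
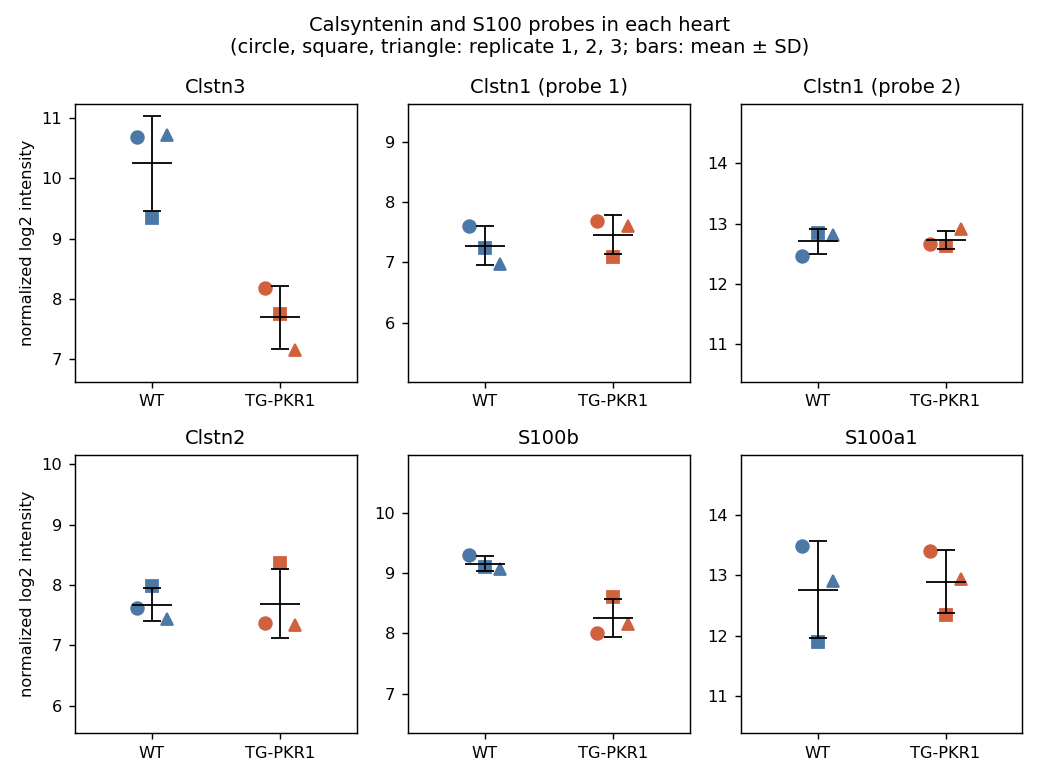
Normalized log2 intensity of the 6 probes well above background, in each of 3 WT hearts (blue) and 3 TG-PKR1 hearts (orange), with the mean ± SD as black bars; every panel spans the same height in log2 units, and Clstn1 probes 1 and 2 are the dimmer and the brighter one. The groups part for Clstn3, with a gap of 1.16, and for S100b, with a gap of 0.46, and overlap in the other panels.

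Across the whole array, limma's test with Benjamini-Hochberg adjustment called 19 of 20000 probes lower in TG-PKR1 hearts (0.095%) and 0 higher (0%), with 475 probes at an unadjusted p under 0.05. None of the 6 member probes tested was among those called. The significance analysis of microarrays (SAM), the permutation method that the study's methods name, called 55 of 19955 probes lower (0.276%) and 0 higher, and Clstn3 was among these while S100b was not. Every TG-PKR1 heart was below every WT heart for 2 of the 6 member probes, and for 2.73% of all 19955 probes. Every TG-PKR1 heart was above every WT heart for 0 of the 6, and for 2.68% of all probes. These calls use the contrast by which the genes were picked, and nothing is read from them.

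Each scan mode holds 1 heart of one group, WT replicate 1 among the extended-range scans and TG-PKR1 replicate 1 among the single scans. The groups do not overlap for Clstn3 and S100b, so any subset of hearts gives a negative difference, and only the size is described. The difference of Clstn3 was -3.24 on the log2 scale among extended-range scans and -1.85 among single scans, and the pair on the shared slide differed by -1.16. For S100b these values were -0.91, -1.07 and -1.08. S100a1 took opposite signs, at -0.84 among extended-range scans and 0.99 among single scans, and differed by 1.5 on the shared slide. Its small pooled difference is therefore the balance of unequal values, and the part of the scan mode was not tested.

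**Figure D2:**
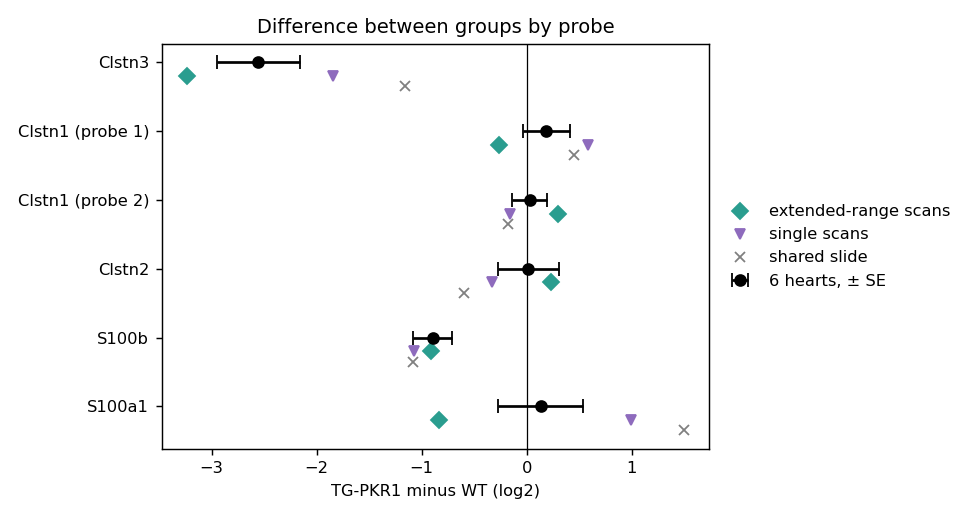
Difference of TG-PKR1 minus WT on the log2 scale for each probe, as the value over 6 hearts ± SE (black), among the extended-range scans (diamonds), among the single scans (triangles) and between the 2 hearts of the shared slide (crosses). All 4 values of Clstn3 lie between -3.24 and -1.16 and those of S100b between -1.08 and -0.89, while the values of the other probes fall on both sides of 0.

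Genes beside the members on the chromosome were read as well. Pex5, the import receptor of peroxisomes next to Clstn3, differed by 0.14 ± 0.18 (SE) and 0.00 ± 0.29 on its 2 probes. Dip2a, next to S100b, differed by -0.18 ± 0.15. Around S100a1, S100a13 differed by -0.17 ± 0.18 and S100a16 by 0.02 ± 0.20, and Pik3cd beside Clstn1 by 0.00 ± 0.21. The other neighbours of S100a1 were 2500003M10Rik at 0.13 and 0.33, Snapap at 0.27 and Ilf2 at 0.08. Of the 10 probes of other genes within 50 kb of a member probe and among the 20000, limma called 0.

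Known partners of the members were next described as lists, by counts and medians beside those of all probes, whose median difference was 0.03. Of 16 calsyntenin partners, 11 were measured, and limma called 0 in either direction, as did SAM, with 0 at an unadjusted p under 0.05. Their median difference was 0.06, at most 0.13 without 1 heart and -0.0046 without TG-PKR1 replicate 2. The largest differences were those of Apba3, an adaptor that binds the amyloid precursor protein, at 0.35 ± 0.16 (SE), and Nrxn2, a neurexin, at -0.27 ± 0.31. The kinesin-1 subunits Klc1 and Kif5b differed by -0.20 ± 0.15 and 0.06 ± 0.23. Ager, the receptor for S100b known as RAGE, was well above background on 1 of 6 arrays and gave no usable level.

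The 9 other measured genes of the S100 family were small in difference. Limma and SAM called 0 of them, with 0 at an unadjusted p under 0.05, and in 8 of 9 the TG-PKR1 mean was below the WT mean, against 8368 of all 20000 probes, with a median of -0.22 against 0.03 for all probes. That median was -0.09 without WT replicate 3, -0.14 without TG-PKR1 replicate 1 and -0.33 without WT replicate 2. The largest difference was that of S100a11, a regulator of annexins, at -0.41 ± 0.24 (SE). S100a6, which binds calcium in fibroblasts, differed by -0.35 ± 0.17. The 6 partners of S100a1 had a median difference of 0.11, or 0.30 with 75th percentile scaling, and 0 calls by limma or SAM, with 0 at an unadjusted p under 0.05. Ryr2, the cardiac ryanodine receptor, differed by 0.16 ± 0.15 and Atp2a2, the calcium pump, by 0.06 ± 0.24. The largest differences of that list were those of Capzb, an actin-capping protein, at 0.39 ± 0.27 and Ttn, the sarcomere spring titin, at 0.18 ± 0.21.

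Among genes that guide and feed nerves, Ntrk2 fell. Of 27 such genes, 14 were measured, and limma called 1 lower and 0 higher, while SAM called 2 lower. Their median difference was 0.05, and -0.06 to 0.10 without 1 heart. Ntrk2, the receptor TrkB for brain-derived neurotrophic factor, gave 9.80, 9.69 and 9.55 in WT hearts and 7.88, 8.08 and 7.23 in TG-PKR1 hearts. It fell by 1.95 ± 0.23 (SE) on the log2 scale (adjusted p = 0.0339, limma). The difference of Ntrk2 stayed below 0 in 17 of 17 alternatives, with adjusted p from 0.0151 to 0.502, and the call was lost when any 1 of the 6 hearts was left out. Nrg4, a growth factor secreted by brown fat that promotes neurite growth, gave 8.72, 8.55 and 8.45 in WT hearts and 7.57, 7.59 and 7.22 in TG-PKR1 hearts. Its difference of -1.11 ± 0.17 had an adjusted p of 0.0899 by limma and was called by SAM. Bdnf, the ligand of TrkB, differed by 0.25 ± 0.20. Ret, a receptor tyrosine kinase of nerve cells, was not well above background on any array.

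**Figure D3:**
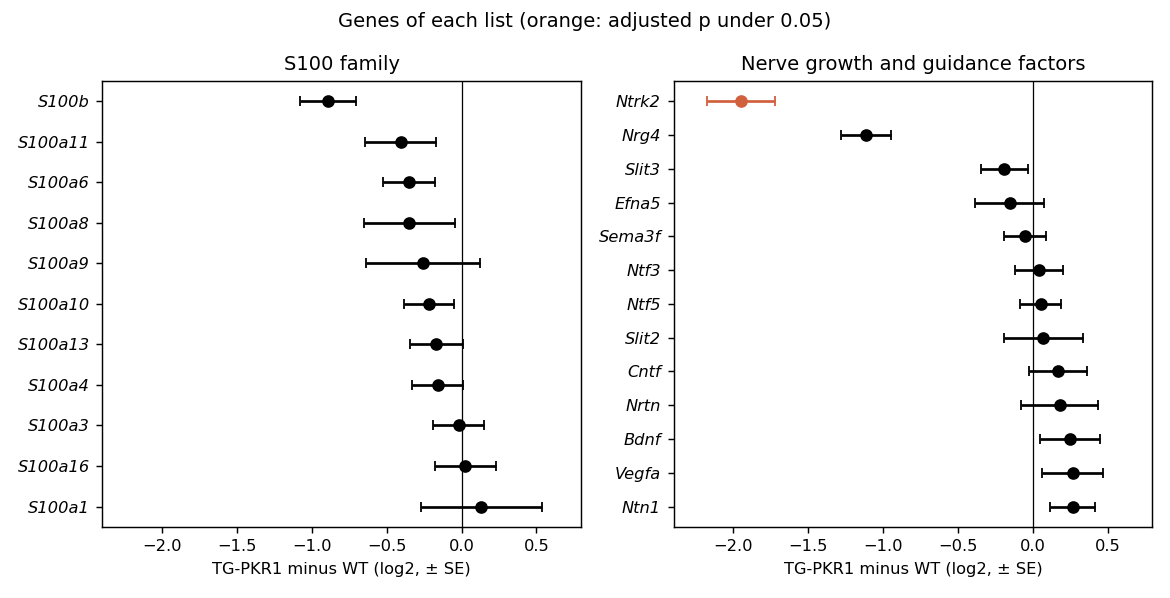
Difference of TG-PKR1 minus WT (log2, ± SE) for the measured genes of the S100 family, members included, and for 13 of the 14 measured nerve growth and guidance factors; orange marks an adjusted p under 0.05 by limma. S100b, chosen by this contrast, is at -0.89 and the values of the other S100 genes run from -0.41 to 0.13, and Ntrk2 at -1.95 and Nrg4 at -1.11 lie apart from the other factors.

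Markers of the cells that could carry these transcripts were read beside them. For Schwann cells, the glia that wrap peripheral nerves, 13 of 20 markers were measured and limma and SAM called 0, with 1 at an unadjusted p under 0.05. The median difference was -0.09, and 0.02 without TG-PKR1 replicate 3. Their summed level was 3750 to 4140 normalized intensity units in WT hearts and 3100 to 3650 in TG-PKR1 hearts, with no overlap, and the part of these cells in the S100b value was not tested. Sox10, the defining transcription factor of these glia, differed by -0.05 ± 0.16 (SE). Mbp, myelin basic protein, gave 9.26, 9.38 and 9.43 in WT hearts and 8.54, 9.03 and 8.52 in TG-PKR1 hearts, with a difference of -0.66 ± 0.18 and an adjusted p of 0.907 by limma. Mag, a myelin glycoprotein, differed by -0.36 ± 0.39, and its groups overlapped. Cdh19, a cadherin of these glia, was well above background on 0 of 6 arrays.

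Sympathetic nerve markers were largely below the reach of the array. Of 24, 8 were measured, with a median difference of -0.05 and 0 calls by limma or SAM, and 0 at an unadjusted p under 0.05. That median was 0.02 without TG-PKR1 replicate 1 and -0.35 with 75th percentile scaling. Their summed level was 2020 to 2330 in WT hearts and 2000 to 2250 in TG-PKR1 hearts. Th, the first enzyme of noradrenaline synthesis, and Npy, its cotransmitter, were not well above background on any array, and Dbh, the last enzyme, was on 2 of 6. Most sympathetic cell bodies, which hold the mRNA of these neurons, lie outside the heart. Ngfr, a neurotrophin receptor, differed by -0.21 ± 0.14 (SE) and Hand2, also expressed in heart muscle development, by 0.16 ± 0.22. Of 7 markers of cholinergic neurons, 2 were measured, with 0 calls by limma or SAM and 0 at an unadjusted p under 0.05. Nos1 differed by -0.28 ± 0.16 (SE) and Chrm2, the muscarinic receptor of cardiomyocytes, by 0.34 ± 0.16.

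Some adipocyte markers fell in the TG-PKR1 hearts and others were close to level. Of 15, 13 were measured, 12 had a TG-PKR1 mean below the WT mean, against 8368 of all 20000 probes, and limma called 3 lower and SAM 6, while 0 were called higher. Their median difference was -0.72, and their summed level was 296000 to 440000 in WT hearts and 244000 to 267000 in TG-PKR1 hearts, with no overlap. Adipoq, the hormone adiponectin, fell by 1.93 ± 0.18 (SE, adjusted p = 0.0339, limma), and Plin1, the coat protein of fat droplets, by 2.25 ± 0.23 (adjusted p = 0.0339). Cidec, which fuses fat droplets, fell by 2.02 ± 0.25 (adjusted p = 0.0387). Dgat2, which makes triglycerides, differed by -0.23 ± 0.22, and Slc2a4, Cd36 and Lpl, which take up glucose and fatty acids and are also expressed in heart muscle, by -0.08 ± 0.22, -0.02 ± 0.20 and 0.02 ± 0.21. The defining markers Lep and Adig were well above background on 2 and 0 of 6 arrays. Leaving out WT replicate 2 kept 2 of the 3 calls, and leaving out any other heart left 0, although the differences of these 3 genes stayed between -2.43 and -1.79 in all 17 alternatives. This list was chosen with the contrast known, so its direction is not independent of the members.

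Thermogenic fat, where Clstn3b and S100b act, was read by 17 brown adipocyte genes, of which 14 were measured. In 11 of 14 the TG-PKR1 mean was below the WT mean, against 8368 of all 20000 probes. Limma called 1 lower and SAM 4, and 0 were called higher, with a median difference of -0.21, and -0.30 to -0.14 without 1 heart. The summed level was 236000 to 363000 in WT hearts and 208000 to 265000 in TG-PKR1 hearts, which overlapped. The list holds Cox7a1 and Cox8b, which heart muscle also expresses. Ucp1, the uncoupling protein that defines thermogenic fat, gave 14.13, 12.91 and 14.08 in WT hearts and 10.86, 10.93 and 9.63 in TG-PKR1 hearts, and fell by 3.23 ± 0.42 (SE, adjusted p = 0.0445, limma). As for Clstn3, WT replicate 2 was the low WT heart and TG-PKR1 replicate 3 the low TG-PKR1 heart. WT replicate 2, the array with the lowest signal over background, was also the low WT heart for S100a1. Adipoq and Plin1 were instead lowest among WT hearts in replicate 3, at 11.99 and 11.58. This order is therefore neither particular to thermogenic fat genes nor common to all fat genes. The call of Ucp1 was kept when WT replicate 2 was left out and lost without any other heart, with adjusted p from 0.0243 to 0.77 over 17 alternatives. Cidea, a droplet protein of brown fat, differed by -1.77 ± 0.25 with an adjusted p of 0.0603 by limma and was called by SAM. Dio2 at -1.39 ± 0.20 and Elovl3 at -2.05 ± 0.35 were also called by SAM. Their adjusted p by limma was 0.081 and 0.145, and Elovl3 was well above background on 4 of 6 arrays. Kdm1a, the histone demethylase LSD1 that acts in brown fat, differed by -0.04 ± 0.15. Ppargc1a, a coactivator of mitochondrial genes, differed by 0.49 ± 0.28, Clic5 by 0.21 ± 0.17 and Ppara by 0.17 ± 0.16, and none was called. The markers Zic1, Lhx8 and Adrb3 were well above background on at most 1 array.

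Cardiomyocyte markers held no call. All 12 were measured, limma and SAM called 0, with 0 at an unadjusted p under 0.05, and their median difference was 0.07. That median ran from -0.08 without TG-PKR1 replicate 1 to 0.21 without TG-PKR1 replicate 2, and was 0.31 with 75th percentile scaling, so it has no settled sign. The largest differences were those of Actn2, an actin crosslinker of the sarcomere, at 0.27 ± 0.17 (SE), and Actc1, cardiac actin, at 0.23 ± 0.24. Their summed level was 924000 to 1290000 in WT hearts and 933000 to 1580000 in TG-PKR1 hearts. The part of fat cells in the Clstn3 and S100b values was not tested, and in whole-heart RNA fewer cells of a type and less RNA per cell cannot be told apart.

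**Figure D4:**
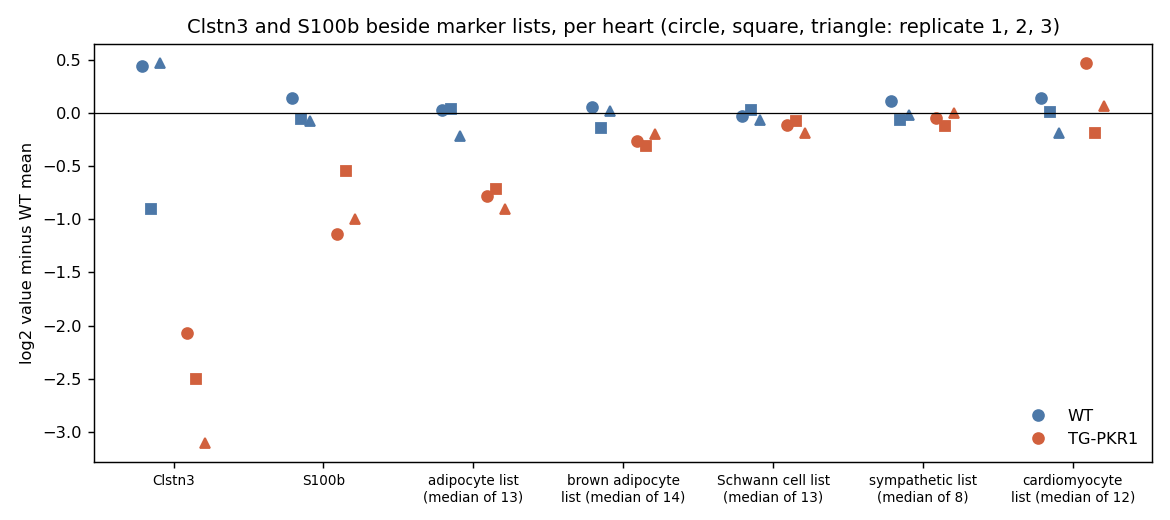
Log2 value minus the WT mean in each heart for Clstn3, S100b and the median over the measured genes of 5 marker lists (WT blue, TG-PKR1 orange). TG-PKR1 hearts lie below all WT hearts for Clstn3 (-3.10 to -2.07), S100b (-1.14 to -0.54), the adipocyte list (-0.91 to -0.72) and the brown adipocyte list (-0.31 to -0.20), and overlap WT hearts for the sympathetic and cardiomyocyte lists. In the Schwann cell list the highest TG-PKR1 heart (-0.0754) nearly meets the lowest WT heart (-0.0718).

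The probes whose pattern over the 6 hearts was most like that of the members were found by the root mean square difference of profiles centred on their own mean, over 19955 probes. Nearest to Clstn3 were Elovl6 at 0.23 log2 units, 2 probes of Fasn at 0.26 and 0.29, Aspg at 0.27 and Cdo1 at 0.33. The differences of these probes ran from -2.86 to -2.09, near that of Clstn3, which the measure selects because it takes in size. Elovl6 and Fasn make long-chain fatty acids, and Cdo1 oxidises cysteine. Ucp1 was number 8 at 0.40, Adipoq number 19 at 0.56 and S100b number 127 at 1 log2 unit. Nearest to S100b were Sfxn1, a serine transporter of mitochondria, at 0.10, Slc7a10, an amino acid transporter, at 0.12, Nnmt, which methylates nicotinamide, at 0.14, and Retnla and Arxes1 at 0.14 each. Their differences ran from -0.91 to -0.72, near that of S100b, as this measure selects. The glial marker Sox10, which differed by -0.05, was number 3785 from S100b, at 0.46. Adipoq, which differed by -1.93, was number 13444 at 0.57. Clstn3 was number 19863 from S100b of the 19955 probes, so the 2 profiles are not close. The measure takes in size as well as order, so a gene with a larger fall lies far from S100b even where the hearts order alike.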

How the data were processed

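Total RNA of 6 hearts was labelled with Cy3 and hybridised to 1 array each. The authors deposited Agilent Feature Extraction output (version 9.5.1.1 in the file headers), whose intensity columns are not normalized between arrays, and a log2 table, described in the methods as LOWESS-normalized and filtered. The gMedianSignal intensity was used without background subtraction. Control and outlier spots were left out, each array was set by loess (span 0.3, 4 iterations) to the median over all 6 arrays, repeated spots entered as their mean, and testing was limited to the 20000 probes brightest by median. Groups were compared by limma 3.58.1 in R 4.3.3 with Benjamini-Hochberg adjustment at 0.05, and by SAM over 20 assignments, written for these data. Of the 20000 probes, 15334 were named by RefSeq accession, 3039 by name and 1627 as in the files. Positions are mm8, as deposited. A list gene was read by its brightest probe. The members and the lists were chosen with earlier results of these data known. Named were all member probes, neighbours within 50 kb, up to 5 called genes of a list or otherwise its 2 largest differences, a fixed set of nerve, glial and fat markers, and the 5 nearest profiles of Clstn3 and S100b. Some genes under this rule are not reported here. The procedure was tested on simulated data. The alternatives were other signals, normalizations and filters, the authors' table, scan mode or slide as a block, and leaving out each heart. The number of arrays and signal over background limit the precision.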

Additional observations from a re-analysis of the deposited data

How the results depend on the processing

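Over 18 alternatives the differences of Clstn3 and S100b lay at -3.10 to -1.16 and -1.19 to -0.77. Without 1 heart, Clstn3 ran from -3.10 to -2.25 and S100b from -1.02 to -0.77. With slide as a block the value is that of the shared slide, at -1.16 for Clstn3, 1.5 for S100a1, -0.18 for the brighter Clstn1 probe and -0.60 for Clstn2. It has no residual degrees of freedom and no test, so no count could be had. Processed signals scaled to the 75th percentile gave -1.19 for S100b. The number of probes called lower, 19 in the main setting, was 55 by SAM, 30 with normexp and quantile normalization, 33 with quantile normalization, and 2 with loess fitted along the median profile, an alternative chosen after seeing the data. It was 0 with 75th percentile scaling, all probes, a filter for signal well above background on at least 3 arrays, the authors' table and scan mode as a block, and 0 to 29 without 1 heart. In the same order, from normexp to loess along the profile, the adipocyte list had 5, 5 and 1 calls, the brown adipocyte list 3, 4 and 0, and the nerve factor list 2, 2 and 0, with 0 in each of the 5 settings without calls. Without 1 heart they had 0 to 2, 0 to 3 and 0. The brown adipocyte list had 2 with the probes of a gene averaged. No count of higher calls rose above 0, and the differences of the 5 called list genes kept their sign. No called value reversed. No paired analysis was possible because the sample titles of only 1 WT and 1 TG-PKR1 heart share a number, which is that of their common slide. Signal over background limits 2 of the 3 Clstn2 probes and Ager, which were not among the 20000. Of the 24 sympathetic markers, 16 were left out of the 20000 by their brightness. Of these 16, 13 were well above background on 0 arrays, while 1, Phox2a, was so on all 6.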
